A study of Mus musculus with 6 samples.

Results

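Erythroid priming was read from 8 genes, chosen by name as regulators and markers of the red cell lineage: Gata1, Klf1, Zfpm1, Epor, Car1, Car2, Alas2 and Tfrc. All of their probe sets that name 1 gene were used, which gave 11 of the 45037 probe sets on the array and 8 of 18193 genes. The cells were long-term haematopoietic stem cells of mouse bone marrow, sorted as lineage-negative cells with Sca-1, c-kit and CD150 and without CD48. There were 3 arrays labelled knockout, from Irf8-/- mice, and 3 labelled wildtype, from Irf8+/+ mice, all at 3 weeks and untreated. Irf8 encodes a transcription factor of the interferon regulatory family that guides monocyte and dendritic cell formation. The labels do not state the removed part of Irf8, the strain, the sex or the number of animals behind each array. Values are the deposited log2 levels, so a difference of 1 is a 2-fold change in the signal.

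The erythroid programme is built up in steps. Gata1 is the zinc finger factor at its centre, Zfpm1 (also FOG1) is the cofactor that binds it, and Klf1 switches on globin and many other red cell genes through CACCC boxes in their promoters. Epor receives erythropoietin, Tfrc (CD71) imports transferrin-bound iron, Alas2 catalyses the first step of haem synthesis in red cells, and Car1 and Car2 are carbonic anhydrases of red cells and their precursors. Stem cells can hold low levels of such lineage genes before commitment, which is called priming.

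The promoters were set beside these roles because GATA factors and Klf1 act on other members. RefSeq windows of 250 bases before the start site (GRCm38.p6) were found for 6 members, in 7 windows. The GATA motif was searched on both strands as AGATAA and as its variants AGATAG (other last base), TGATAA (other opening base) and TGATAG (both). It occurred in 3 of the 7 windows, those of Klf1, Epor and Alas2, and in 26.5% of all 32851 windows of that length. The CACCC-type motif CCNCACCC, also on both strands, occurred in 5 of the 7 windows and in 14.9% of all windows. The 5 belong to 4 members, Gata1, Epor, Alas2 and Tfrc, where the 2 windows of Tfrc share part of their sequence. The 2 matches of Alas2 overlap each other, and no match overlaps a GATA motif. The 3 windows with a GATA motif are shown, and a link between motifs and expression was not tested. No window was found for Car1 and Car2. The windows run 5′ to 3′ on the gene's strand, and the capitals mark the GATA motif, here read on its opposite strand. A match is a string of letters and not a shown binding site.
Klf1, chr8:84901732-84901981, plus strand: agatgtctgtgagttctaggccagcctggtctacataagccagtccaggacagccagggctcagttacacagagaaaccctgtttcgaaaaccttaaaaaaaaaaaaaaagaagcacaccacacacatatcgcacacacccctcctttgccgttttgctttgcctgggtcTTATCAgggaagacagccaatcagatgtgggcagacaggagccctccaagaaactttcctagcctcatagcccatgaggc
Epor, chr9:21963577-21963826, minus strand: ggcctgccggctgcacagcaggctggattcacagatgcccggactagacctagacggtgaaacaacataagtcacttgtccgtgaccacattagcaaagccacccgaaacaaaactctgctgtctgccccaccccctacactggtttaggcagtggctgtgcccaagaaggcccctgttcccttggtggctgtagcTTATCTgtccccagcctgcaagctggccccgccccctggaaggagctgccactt
Alas2, chrX:150547167-150547416, plus strand: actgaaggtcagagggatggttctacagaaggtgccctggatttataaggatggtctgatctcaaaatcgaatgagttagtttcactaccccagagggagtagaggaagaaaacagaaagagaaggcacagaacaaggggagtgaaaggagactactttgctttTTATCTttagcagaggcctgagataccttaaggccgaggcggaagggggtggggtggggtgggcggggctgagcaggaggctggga

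The arrays differed from each other in markers of the sort and of other cells. Irf8 did not read lower in the knockout arrays (4.91, 6.39 and 6.50, against 4.98, 6.43 and 5.16 in wildtype arrays for its brighter probe set), and the labels do not say where its probes lie relative to the deletion, so the groups are named as labelled. Of 14 stem cell and sort markers 12 were measured, with list means between 7.86 and 9.27 in knockout arrays and between 8.50 and 9.075 in wildtype arrays. The stem cell factors Meis1 and Hlf read 9.87 or more in all 6 arrays by their brightest probe sets, and 6.83 or more by their other probe sets. The lowest of these list means was in knockout replicate 3, where Slamf1, which encodes CD150, read 4.71 and the neutrophil list averaged 10.63, against a range of 6.435 to 8.34 in the other 5 arrays. Slamf1 varied in both groups, with 9.02 and 8.49 in knockout replicates 1 and 2 and 5.97, 9.11 and 6.63 in wildtype replicates 1 to 3. Cd48, whose product was a marker for exclusion in the sort, read 7.60 and 9.42 in knockout replicates 1 and 2, against 3.55 in knockout replicate 3 and at most 4.54 in wildtype arrays. The megakaryocyte and platelet list averaged 8.70 in wildtype replicate 1 and between 6.70 and 7.40 in the other 5 arrays. The part of these differences in the results below was not tested, apart from the values without single arrays.

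**Figure D1:**
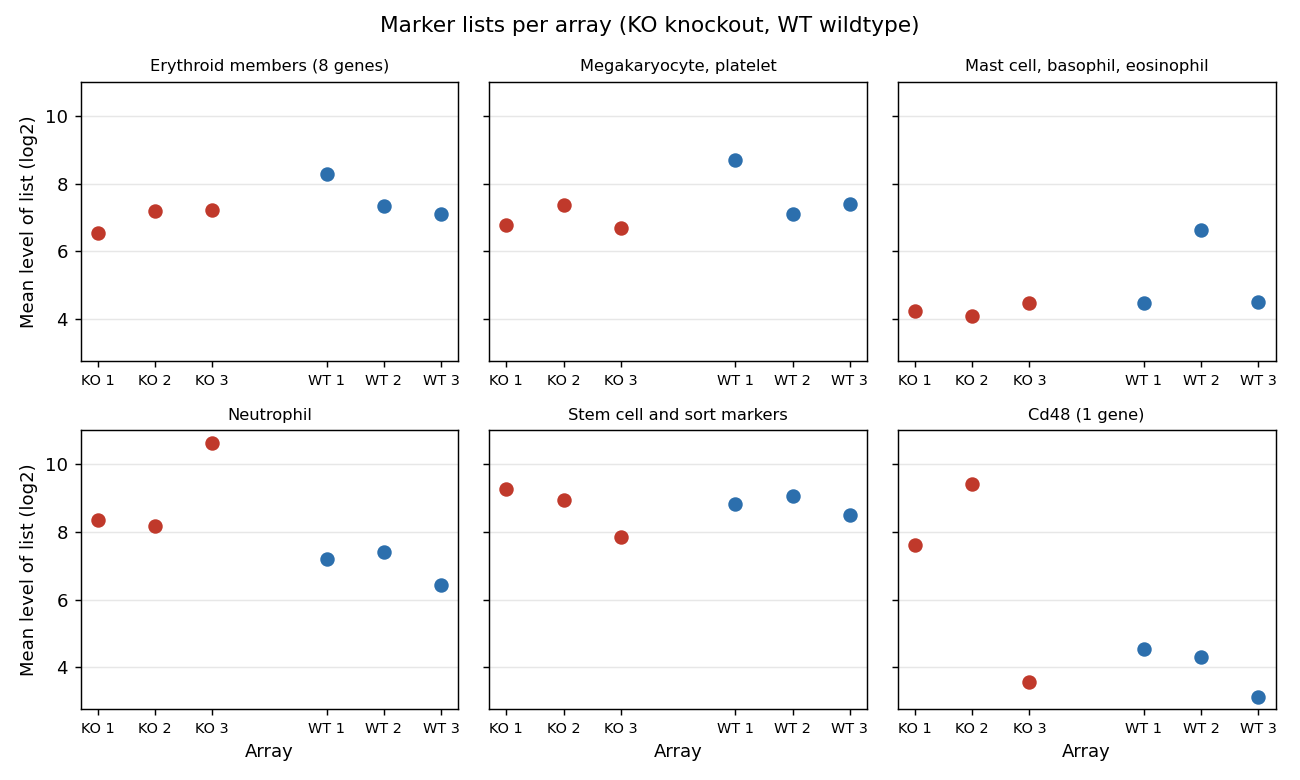
Mean log2 level per array (y axis) of the 8 erythroid members, 4 lists of marker genes and Cd48, with knockout arrays on the left and wildtype arrays on the right of each panel; each point is 1 array. Knockout replicate 3 stands highest for neutrophil markers at 10.63, wildtype replicate 1 highest for megakaryocyte and platelet markers at 8.70 and for the erythroid members at 8.28, and Cd48 is high in knockout replicates 1 and 2.

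The question was whether erythroid priming genes differ between Irf8 knockout and wildtype stem cells. None of the 11 probe sets passed limma's test after Benjamini-Hochberg adjustment over all probe sets, with adjusted p between 0.906 and 0.988, and 0% of all probe sets passed. At an unadjusted p under 0.05 there was 1 member probe set, that of Klf1, against 4.7% of all probe sets. The knockout mean was lower for 5 probe sets (Klf1, Car1, Epor, Car2 and Alas2), beside 43.3% of all probe sets, and higher for 6 (Gata1, both of Zfpm1 and all 3 of Tfrc). The groups did not overlap for 2 of the 11, Klf1 below and 1 Tfrc probe set above; among all probe sets this held for 10.9% (4.23% lower and 6.66% higher in knockout). With the brightest probe set per gene, the median difference of the 8 members was -0.48, beside 0.07 over all 18193 genes. Over all 11 member probe sets the median difference was 0.08, beside 0.07 over all probe sets, so the lower median depends on counting each gene once. In stem cells sorted in bulk, fewer primed cells and less RNA per cell cannot be told apart.

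**Figure D2:**
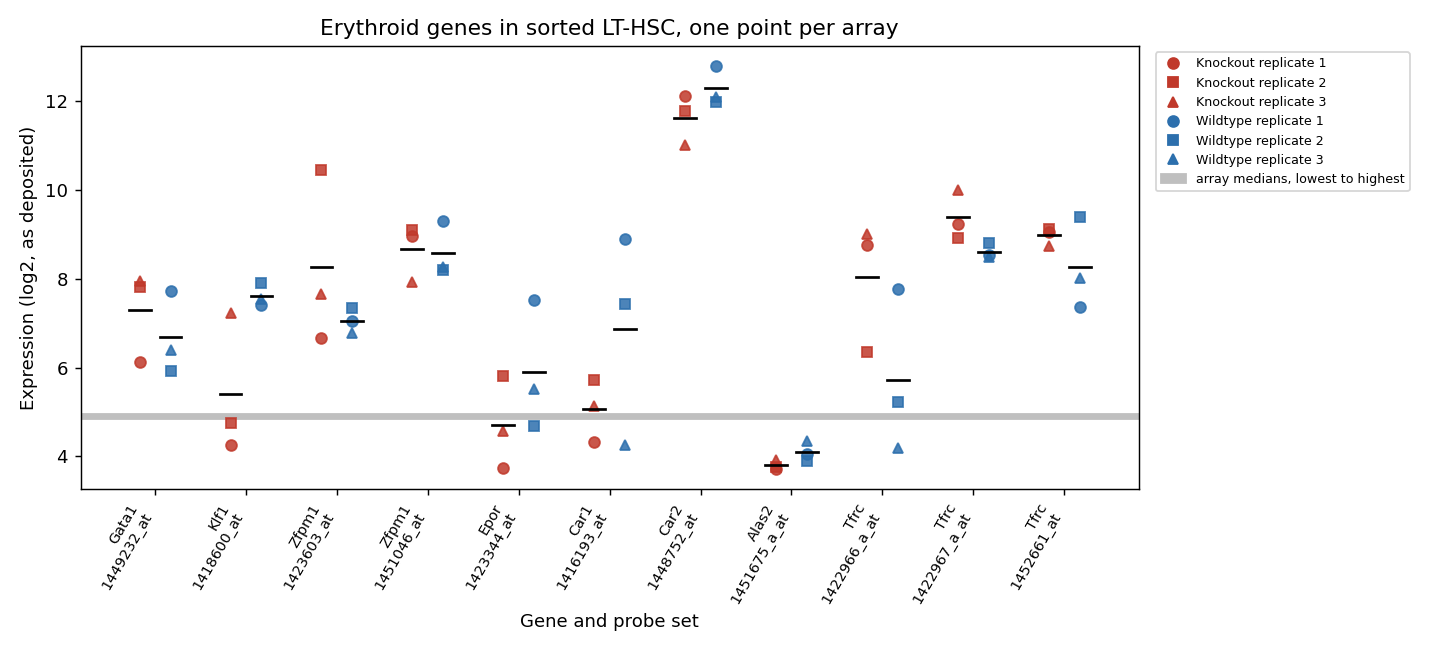
Deposited log2 level (y axis) of each member probe set (x axis), with knockout arrays in red on the left and wildtype arrays in blue on the right; each point is 1 array, the marker shape gives the replicate number, short bars are group means, and the grey band spans the array medians. Klf1 read 4.26 and 4.75 in knockout replicates 1 and 2 but 7.23 in replicate 3, next to wildtype values between 7.40 and 7.91.

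Klf1 had the lowest unadjusted p of the members, and its knockout arrays disagreed among themselves. It read 4.26, 4.75 and 7.23 in knockout replicates 1 to 3, against 7.40, 7.91 and 7.56 in wildtype replicates 1 to 3. Knockout replicates 1 and 2 lay under their array medians, while knockout replicate 3 lay only 0.17 under the lowest wildtype array. The difference was -2.21 (SE 0.84), a 4.62-fold lower signal in knockout arrays (limma unadjusted p = 0.0363, adjusted p = 0.906). Without knockout replicate 3 the difference was -3.12 (SE 0.47, unadjusted p = 0.00103 and adjusted p = 0.584 in limma). Leaving out any other array gave a difference between -2.32 and -1.63 and an unadjusted p between 0.0665 and 0.112 in limma. The wildtype arrays were close together, with an SD of 0.26 (n = 3), against 1.59 in knockout arrays (n = 3). The array with Klf1 nearest to wildtype was the one with the highest neutrophil list.

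Gata1 did not follow Klf1. It read 6.12, 7.80 and 7.95 in knockout replicates 1 to 3, against 7.72, 5.93 and 6.40 in wildtype replicates 1 to 3. The groups overlapped, with 2 knockout arrays above all wildtype arrays, and the difference was 0.61 (SE 0.76, adjusted p = 0.918 in limma). The value lay between 0.24 without wildtype replicate 2 and 1.20 without knockout replicate 1. All 6 arrays read above their array median for this gene.

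The probe sets of Zfpm1, the Gata1 cofactor, gave unlike pictures. The brighter one, 1451046_at, read 8.98, 9.11 and 7.93 in knockout replicates 1 to 3, against 9.31, 8.20 and 8.27 in wildtype replicates 1 to 3, a difference of 0.08 (SE 0.55). It changed sign when any of 4 arrays was left out, from -0.14 without knockout replicate 2 to 0.45 without knockout replicate 3. The other, 1423603_at, read 6.65, 10.44 and 7.67 in knockout arrays, against 7.05, 7.35 and 6.78 in wildtype arrays, a difference of 1.20 (SE 1.00). That difference rested on knockout replicate 2, without which it was 0.10. RefSeq places Zfpm1 on chromosome 8 with Irf8, with 15 protein-coding genes between them, and Klf1 on the same chromosome with 325 between.

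Epor and Car1 had lower knockout means, with wildtype replicate 1 as the highest array for both. Epor, the erythropoietin receptor, read 3.73, 5.81 and 4.57 in knockout replicates 1 to 3, against 7.51, 4.68 and 5.52 in wildtype replicates 1 to 3. The groups overlapped, and the difference of -1.20 (SE 0.87) was -0.40 (SE 0.70) without wildtype replicate 1. Without wildtype replicate 2 it was -1.81 and without knockout replicate 1 it was -0.71. Only 3 of the 6 Epor values lay above their array medians. The same wildtype array had the highest megakaryocyte and platelet list.

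Car1, an early marker of committed erythroid progenitors, had the widest wildtype spread of the members. It read 4.33, 5.73 and 5.13 in knockout replicates 1 to 3, against 8.90, 7.44 and 4.26 in wildtype replicates 1 to 3. Wildtype replicates 1 and 2 were above all knockout arrays and wildtype replicate 3 was below all of them. The difference was -1.81 (SE 1.18, adjusted p = 0.906 in limma), with -0.79 without wildtype replicate 1 and -3.11 (SE 0.74, unadjusted p = 0.00694 and adjusted p = 0.945 in limma) without wildtype replicate 3. Within wildtype the Car1 values spanned 4.64 on the log2 scale, against 1.397 within knockout.

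Car2 was bright in all arrays and had a smaller spread. It read 12.11, 11.78 and 11.01 in knockout replicates 1 to 3, against 12.80, 11.99 and 12.11 in wildtype replicates 1 to 3. Knockout replicate 1 lay among the wildtype values, and the other knockout arrays lay under all of them. The difference was -0.67 (SE 0.34, unadjusted p = 0.0962 and adjusted p = 0.906 in limma). It was -0.35 without knockout replicate 3 and -0.90 without knockout replicate 1. Car1 and Car2 lie near each other on chromosome 3, but the array that was highest for both, wildtype replicate 1, was followed by different arrays for each.

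Alas2, the erythroid enzyme of haem synthesis, was the dimmest member. It read 3.71, 3.76 and 3.91 in knockout replicates 1 to 3, against 4.05, 3.89 and 4.34 in wildtype replicates 1 to 3. Every value lay under its array median (4.85 to 4.96). The difference was -0.30 (SE 0.21, adjusted p = 0.906 in limma).

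Tfrc, the transferrin receptor, had higher means in knockout arrays in all 3 of its probe sets. The brightest, 1422967_a_at, read 9.24, 8.93 and 10.01 in knockout replicates 1 to 3, against 8.54, 8.82 and 8.49 in wildtype replicates 1 to 3. These groups did not overlap, by a gap of 0.11, with a difference of 0.78 (SE 0.44, unadjusted p = 0.121 and adjusted p = 0.906 in limma). It was 0.47 without knockout replicate 3. The probe set 1422966_a_at read 8.77, 6.35 and 9.02 in knockout arrays, against 7.77, 5.22 and 4.18 in wildtype arrays, a difference of 2.33 (SE 1.15), which was 1.56 without wildtype replicate 3. The third, 1452661_at, read 9.07, 9.12 and 8.75 in knockout arrays, against 7.38, 9.40 and 8.01 in wildtype arrays, a difference of 0.72 (SE 0.61), and wildtype replicate 2 was its highest array. Without wildtype replicate 1 that difference was 0.27, and all 3 probe sets kept a difference above 0 whichever array was left out. With the mean of the 3 probe sets Tfrc differed by 1.27 (SE 0.50, unadjusted p = 0.0372 and adjusted p = 0.898 in limma). Tfrc is also used by dividing cells outside the red cell lineage.

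**Figure D3:**
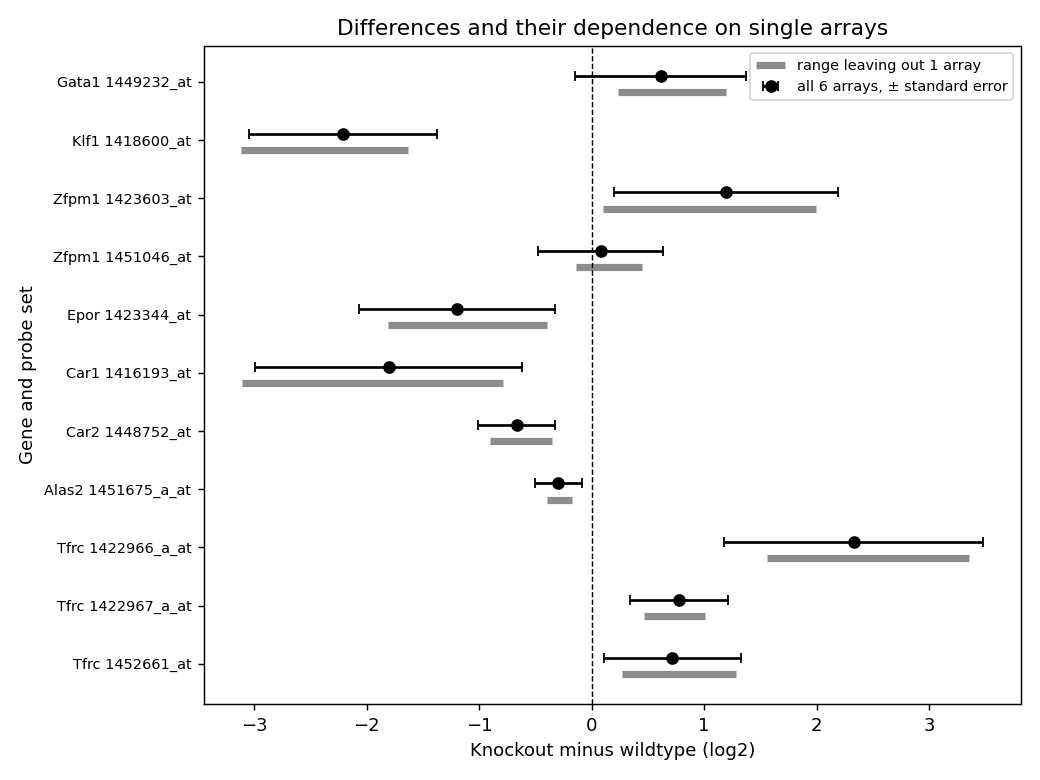
Knockout minus wildtype difference on the log2 scale (x axis) for each member probe set (y axis); points are the fit to all 6 arrays with their standard error, and grey bars span the values when 1 array is left out. The Klf1 bar runs from -3.12 to -1.63 and the 3 Tfrc bars stay above 0, while 1 Zfpm1 bar crosses 0.

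The members did not share 1 order of arrays. Wildtype replicate 1 was the highest array for 4 of the 11 probe sets (Zfpm1, Epor, Car1 and Car2), knockout replicate 3 for 3 (Gata1 and 2 of Tfrc), wildtype replicate 2 for 2 (Klf1 and 1 of Tfrc), and knockout replicate 2 and wildtype replicate 3 for 1 each. Knockout replicate 1 was the lowest array for 4, namely Klf1, Epor, Alas2 and the dimmer Zfpm1 probe set. The range over the 6 arrays was above the median range of all probe sets, 1.38, for 10 of the 11, with Alas2 under it at 0.63 and the brighter Zfpm1 probe set at 1.385.

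Other transcription factors of the erythroid network gave 1 gene with groups apart. Of 18 measured, 0 passed over all genes, where 0% of all genes did, and 1 had groups that did not overlap, lower in knockout (5.56%, beside 4.25% of all genes in that direction), and the median difference was -0.16, which was 0.02 without knockout replicate 3. That gene was Gfi1b, which encodes a transcriptional repressor required to make red cells and platelets, and which read 7.72, 7.91 and 9.12 in knockout replicates 1 to 3, against 10.42, 10.30 and 10.74 in wildtype replicates 1 to 3 (difference -2.24, SE 0.51, unadjusted p = 0.00329 and adjusted p = 0.887 in limma). As for Klf1, knockout replicate 3 was the knockout array nearest to wildtype. Tal1 and Lmo2, stem cell and erythroid partners of Gata1 in complexes on DNA, were singled out after their values were seen. They differed by 0.69 (SE 0.73) and 0.09 (SE 0.20).

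Haem, globin and red cell membrane genes had list medians between -0.08 and -0.01. None of these medians kept its sign when single arrays were left out: they ran from -0.32 to 0.08, from -0.20 to 0.17 and from -0.13 to 0.19 in that order of lists. Of 12 haem synthesis genes 7 had lower and 5 higher knockout means, with a median of -0.08 and 0 with groups apart, beside 10.9% of all genes. The smallest p (0.289 unadjusted, in limma) was that of Abcb10, a mitochondrial transporter of haem synthesis, with a difference of 0.88 (SE 0.77), while its other probe sets differed by 0.15 and 0.17. Of 6 globin genes the median was -0.04, and 1 had groups apart (16.7%, beside 10.9% of all genes), the embryonic globin gene Hbb-bh1, at a dim level of 4.52, 4.51 and 4.76 in knockout arrays, against 4.37, 4.38 and 4.38 in wildtype arrays (difference 0.22, SE 0.20). The adult alpha-globin gene Hba-a2, singled out after its values were seen, was bright in every array, with 11.33, 9.96 and 11.08 in knockout arrays, against 10.71, 10.21 and 11.60 in wildtype arrays. By contrast, 4 of the 6 globin genes lay at or under the median gene level. The other adult alpha-globin gene, Hba-a1, was among them, at 4.38, 4.31 and 4.23 in knockout arrays, against 4.33, 4.46 and 5.185 in wildtype arrays. Each of the 2 is given by its brightest probe set that names 1 gene, and probe sets naming several genes were not used. Whether these 2 genes or only their probe sets differ in level was not tested. Of 15 red cell membrane and blood group genes 10 lay at or under the median gene level of 5.81, the median difference was -0.01, and Rhag, of the Rhesus complex, was the 1 gene with groups apart (difference -1.16, SE 0.60; 6.67% of the list, beside 10.9% of all genes). Rhag read 2.39, 2.55 and 2.29 in knockout arrays, against 3.00, 2.64 and 5.08 in wildtype arrays.

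Genes that handle iron had lower means more often than higher ones. Of 11 measured, 8 were below 0 and 3 above, where 43.4% of all genes were below 0. Their median of -0.28, which became -0.53 without knockout replicate 1, stood beside 0.07 over all genes. None had groups apart, and 0 passed over all genes. The smallest p was that of Ireb2, an iron regulatory protein that binds Tfrc mRNA and protects it from decay when iron is low, at 5.61, 5.01 and 4.80 in knockout replicates 1 to 3, against 5.88, 6.90 and 5.498 in wildtype replicates 1 to 3 (difference -0.95, SE 0.47, unadjusted p = 0.0832 and adjusted p = 0.887 in limma).

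Genes that act after the erythropoietin receptor held 3 of 14 with groups apart, all of them higher in knockout (21.4%, beside 6.67% of all genes in that direction). These 3 also had an unadjusted p under 0.05, beside 2.4% of all genes in that direction, and 0 passed over all genes. Cish, a feedback inhibitor induced by STAT5, read 10.59, 11.10 and 10.65 in knockout replicates 1 to 3, against 9.50, 9.72 and 9.57 in wildtype replicates 1 to 3 (difference 1.18, SE 0.31, unadjusted p = 0.00675 and adjusted p = 0.887 in limma). Each knockout array was above each wildtype array by at least 0.87. Socs1, an inhibitor of JAK kinases, read 5.72, 5.36 and 5.30 in knockout arrays, against 4.27, 4.34 and 4.76 in wildtype arrays (difference 1.00, SE 0.27). Its mean lay under the median gene level of 5.81. Stat5b, a transducer of many cytokines, read 8.41, 8.14 and 10.07 in knockout arrays, against 7.77, 7.15 and 6.38 in wildtype arrays (difference 1.77, SE 0.72), while its other probe set differed by 0.00 (SE 0.67). The list's median was 0.03, with 7 genes on each side of 0, and ran from -0.06 to 0.25 when single arrays were left out. Its members also serve other cytokine receptors, so the list is not specific to Epor.

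Other carbonic anhydrases and further markers of erythroid progenitors complete the lists. Of 14 other carbonic anhydrase genes 11 lay at or under the median gene level, 9 had higher knockout means, and the median was 0.22, which was -0.15 without knockout replicate 3; Car4 was the 1 gene with groups apart (0.48, SE 0.26; 7.14% of the list, beside 6.67% of all genes in that direction) and its other probe set differed by 0.07. Of 16 other progenitor markers 10 had lower knockout means, with a median of -0.37. That median was -0.67 without knockout replicate 1, -0.66 without wildtype replicate 3 and -0.23 without wildtype replicate 1. Averaging the probe sets of each gene gave -0.22. Groups were apart for 4 of them (25%, beside 10.9% of all genes), 3 lower and 1 higher in knockout. Sphk1, a sphingosine kinase gene singled out after its values were seen, was the higher one at a dim level (difference 0.33, SE 0.27). The 3 lower ones were Apoe, a lipid carrier, at a difference of -1.06 (SE 0.53), the haem-binding protein gene Hebp1 at -0.69 (SE 0.37), and Hemgn, a nuclear protein of haematopoietic cells. Hebp1 also lay under the median gene level. Hemgn read 7.34, 8.20 and 5.15 in knockout replicates 1 to 3, against 8.47, 8.23 and 8.54 in wildtype replicates 1 to 3, and knockout replicate 3 was far below the other 5 arrays. None of these genes passed over all genes, with adjusted p of 0.887 each in limma.

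**Figure D4:**
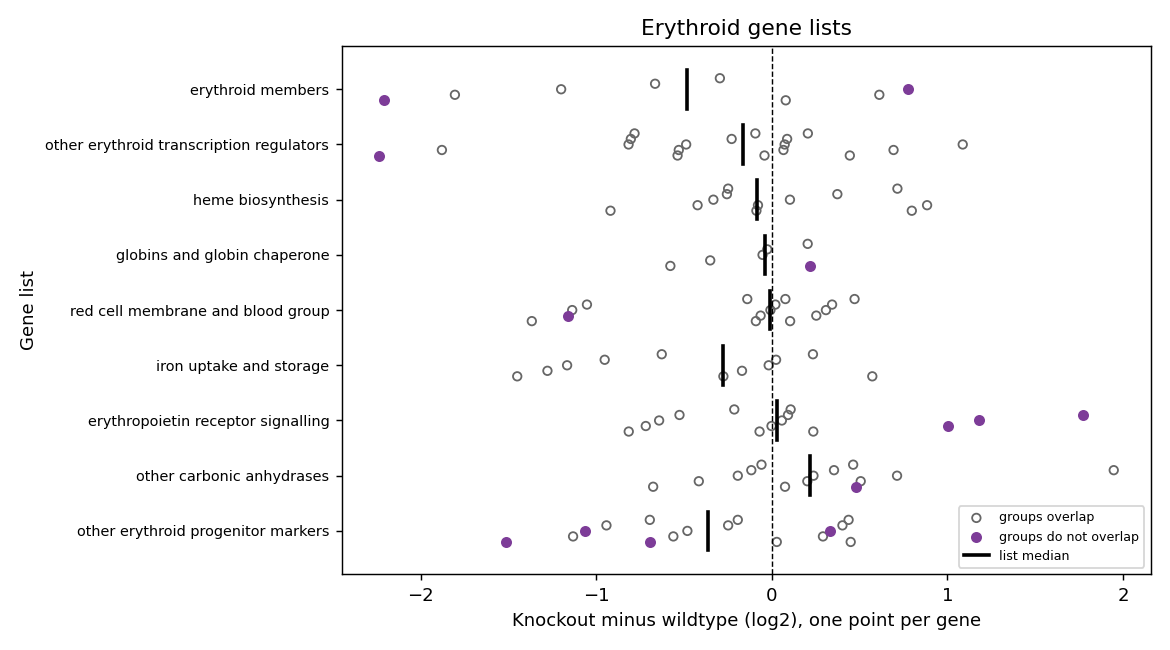
Knockout minus wildtype difference on the log2 scale (x axis) of each gene in the erythroid lists (y axis), 1 point per gene; filled points are genes whose 3 knockout and 3 wildtype arrays do not overlap, and black bars are list medians. Klf1 and Gfi1b lie left of -2, Cish, Socs1 and Stat5b lie right of 1 or at it, and list medians lie between -0.48 and 0.22.

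Markers of other cells were set beside these values, with single genes given by their brightest probe set; other probe sets of Vcam1, Siglec1, Ebf1, Cd4 and Cd8a included differences of the opposite sign. In the neutrophil list 13 of 14 genes had higher knockout means, with a median of 2.27 (1.41 without knockout replicate 3), list means of 8.17 to 10.63 in knockout arrays and 6.435 to 7.415 in wildtype arrays, and S100a9 and S100a8 as its brightest genes at differences of 2.01 and 2.12. In the megakaryocyte and platelet list 9 of 15 were below 0, with a median of -0.18 (-0.67 without knockout replicate 2 and -0.08 without wildtype replicate 3) and list means of 6.70 to 7.38 in knockout arrays and 7.12 to 8.70 in wildtype arrays. Its brightest genes, Pf4 and Itgb3, differed by 0.17 and 0.75, while the other probe set of Itgb3 differed by -1.485 (SE 0.74). Of the 15 genes 3 had an unadjusted p under 0.05 in limma, all lower in knockout, beside 880 of 18193 genes in both directions. Thbs1, singled out after its values were seen, was the 1 gene with groups apart (6.67%, beside 4.25% of all genes in that direction). It differed by -2.81 (SE 0.45, adjusted p = 0.696 in limma). The mast cell, basophil and eosinophil list had list means of 4.10 to 4.49 in knockout arrays and 4.49 to 6.63 in wildtype arrays, the highest in wildtype replicate 2, and Mitf and Mcpt8 differed by -1.88 and -2.00. The other probe set of Mitf differed by -0.23. Of the 9 genes 7 were below 0 and 2 above, and 7 lay at or under the median gene level. Their median of -0.95 was -0.007 without wildtype replicate 2. The monocyte and dendritic cell list ran from 5.11 to 5.675 in knockout arrays and from 4.83 to 5.42 in wildtype arrays, with Cd68 at 0.38 and Flt3, which is also a progenitor gene, at 2.45. Of its 10 genes 7 were above 0 and 3 below, with a median of 0.24, and 7 lay at or under the median gene level. Groups were apart for 3 of them, all higher in knockout (30%, beside 6.67% of all genes in that direction). All 9 genes of erythroblastic island macrophages, the cells that nurse red cell precursors, lay at or under the median gene level, with list means of 4.18 to 4.33 in knockout arrays and 4.14 to 4.56 in wildtype arrays and Vcam1 and Siglec1 at 0.04 and 0.31. B cell means ran from 4.40 to 5.00 in knockout arrays and 4.73 to 4.94 in wildtype arrays, with Cd79b and Ebf1 at -1.41 and -0.12. Of the 8 B cell genes 4 were above 0 and 4 below, with a median of 0.02 (-0.13 to 0.15 when single arrays were left out). T and NK cell means ran from 4.07 to 4.60 in knockout arrays and 3.96 to 4.201 in wildtype arrays, with Cd4 and Cd8a at -0.12 and -0.04 and all 7 genes at or under the median level. Unlike these 2 genes, the T and NK list had 4 of 7 above 0 and a median of 0.21. In it 1 gene had groups apart, higher in knockout (14.3%, beside 6.67% of all genes in that direction).

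The genes most alike to each member over the 6 arrays, by Pearson correlation with its brightest probe set, were read as a description. For each member 7628 or 7629 named genes above the median level that ranged over at least 1 log2 were compared, and between 38 and 98 of them reached 0.9 for a given member, so a high value with 6 arrays is common. Klf1 was most like Tbc1d24 (0.978) and Rcsd1 (0.975), and Gata1 most like Ints6l (0.983) and Fam53b (0.981). Zfpm1 was most like Plec, a cytoskeletal linker (0.983), and Sap30, of a histone deacetylase complex (0.980). Epor was most like Pomt1 and Ppm1b (both 0.985), Car1 most like Evi5l (0.995) and Agbl5 (0.981), and Car2 most like Atrn (0.994) and Esam, an adhesion molecule of endothelium and stem cells (0.980). Alas2 was most like Sec61b (0.981) and Vamp5 (0.980), and Tfrc most like Ceacam1 (0.986) and Nsun4 (0.985). None of these 16 genes was another member, but Epor and Alas2 lay under the median level and were not among the genes searched. With only 2 genes named per member, this does not show whether the members vary together.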

How the data were processed

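Per the labels' protocols, a whole-transcriptome kit amplified the total RNA, which was then run on Affymetrix arrays. The deposited numbers are on a log2 scale, as read from the values. The submitters' processing notes list RMA, Affymetrix Expression Console and Partek, with no version, and their settings were not stated. In general, RMA compresses differences of dim probe sets. Array medians ran from 4.85 to 4.96. Of 45037 probe sets 34945 named 1 gene by the platform annotation; 34741 matched RefSeq (GRCm38.p6) by Entrez number.

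Knockout minus wildtype differences came from limma 3.58.1 in R 4.3.3 (lmFit, then eBayes with a trend on the mean), over all probe sets for the members and over 18193 genes, each by its brightest probe set, for lists; adjusted p is Benjamini-Hochberg over all rows, with a threshold of 0.05. The members and lists were chosen with earlier results of these data known. Named genes were all members; per pathway list up to 3 genes with groups apart by smallest p, otherwise the 1 with the smallest p; per marker list the 2 brightest; and the 2 most correlated per member. Same-numbered arrays of the groups did not deviate together (correlations of -0.024, -0.009 and -0.011 across genes), so replicate numbers were not used as pairs. The labels call the arrays biological replicates without naming animals, so p-values measure the spread between these samples. Alternatives covered moderation, array weights, scaling, a replicate block, filters, the choice of probe set and leaving out each array. Tables and figures were made with pandas 2.3.3, numpy 2.4.6 and matplotlib 3.10.9 under Python 3.11.15.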

Additional observations from a re-analysis of the deposited data

How the results depend on the processing

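The count of members passing the adjusted threshold was 0 under all 12 alternatives for probe sets and all 14 for genes, with member adjusted p between 0.584 and 0.993 in limma. At an unadjusted p under 0.05 in limma there were between 0 and 2 members under each alternative, and 1 with all arrays as reported. Beside these, 1715 to 2746 of all 45037 probe sets and 689 to 1204 of all 18193 genes reached it under the alternatives that kept all rows. With only rows above the median level it was 1253 of 22518 probe sets and 528 of 9096 genes. Of 241 member values under these alternatives 233 kept their sign. The other 8 were those of the brighter Zfpm1 probe set, which differed by -0.119 without wildtype replicate 2, -0.083 without wildtype replicate 3, -0.073 without knockout replicate 1 and -0.141 without knockout replicate 2, in the probe set fit and in the gene fit alike, within a range of -0.141 to 0.451; the cause was not tested. Over all genes 1 passed with arrays centred on their median or with the mean of probe sets (smallest adjusted p = 0.047 each), namely Zfp229, named after its values were seen, which is in none of the lists. With the replicate number as a block the differences were the same by construction, 0 members passed, and the unadjusted p of Klf1 was 0.0455 and that of Car2 0.0324, where it was 0.0962 without the block. Of 236 list medians 214 moved by less than 1 SD between arrays. With only probe sets above the median level Alas2 had no value, and in the gene fit neither Alas2 nor Epor had one. No detection value was used here, so a limit on dim genes such as Alas2 was not measured.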
